A study of Homo sapiens with 9 samples.

Results

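The miR-320 family was followed through 9 small RNA libraries of 2 human cell lines in which ERH had been targeted by siRNA. Its members were taken by name from a count table of 1485 miRNA hairpins, and all 8 listed names were found: hsa-mir-320a, hsa-mir-320b-1, hsa-mir-320b-2, hsa-mir-320c-1, hsa-mir-320c-2, hsa-mir-320d-1, hsa-mir-320d-2 and hsa-mir-320e. HEK293E descends from HEK293, a line of embryonic kidney origin. Its libraries of siGFP, siControl and siERH-3 each have replicates 1 and 2, whereas siERH-5 has replicate 2 alone. HEK293E was transfected on days 0 and 3 and harvested on day 5. K562, a leukaemia line with erythroid features, received siGFP or siERH-5 in 1 library each and was harvested 4 days after transfection. siGFP and siControl were the control siRNAs, siERH-3 and siERH-5 were siRNAs against ERH, and the labels name no other genetic change. No label says that replicates were separate cultures, so p-values measure the spread between these libraries, which may be technical.

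Most miRNAs are cut from a longer primary transcript by the nuclear Microprocessor, made of DROSHA and DGCR8, and ERH is a small nuclear protein that binds DGCR8. The precursor of miR-320a is made another way: transcription starts at its own end, the RNA carries a cap, and it reaches DICER without DROSHA cleavage. Its guide strand comes from the 3p arm. The copies named b to e are similar hairpins elsewhere in the genome.

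The mature sequences show how closely the copies resemble each other. RefSeq (GRCh38.p14) gave a mature sequence for 7 of the 8 hairpins, all but hsa-mir-320a, and the 7 fell into 4 distinct sequences. They are written 5′ to 3′, as the table has them, with the seed, bases 2 to 8, in capitals:
hsa-miR-320b: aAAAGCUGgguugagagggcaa
hsa-miR-320c: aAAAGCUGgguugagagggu
hsa-miR-320d: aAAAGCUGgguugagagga
hsa-miR-320e: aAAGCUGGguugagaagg
miR-320b, miR-320c and miR-320d share their seed and are 22, 20 and 19 bases long. The first 19 bases of miR-320b are those of miR-320c, and its first 18 are those of miR-320d. RNAs of 18 to 30 bases were selected for sequencing, so a read that ended within the shared stretch would fit several copies. miR-320e has 18 bases and starts 1 base later, which gives it another seed. Apart from miR-320b, miR-320c and miR-320d, 1 of the 2370 mature sequences in the table holds their seed, hsa-miR-4429. Its hairpin had a count of 1 in 2 of the 9 libraries and 0 in the others. miR-320a was not among those sequences, so its seed and the reads it may share with the copies were not compared.

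The 2 hairpins of each name differ outside the mature arm. hsa-mir-320c-1 and hsa-mir-320c-2 are shown with the mature sequence in capitals, since their counts could not be told apart:
hsa-mir-320c-1: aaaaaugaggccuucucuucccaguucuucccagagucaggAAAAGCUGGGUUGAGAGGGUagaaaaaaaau
hsa-mir-320c-2: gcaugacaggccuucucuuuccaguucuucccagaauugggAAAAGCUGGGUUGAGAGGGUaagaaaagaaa
They have the same base at 58 of 72 positions and are identical over 21 bases from the start of the mature sequence. The second copy of each pair held nearly the counts of the first. Over all libraries hsa-mir-320b-1 had 128070 counts and hsa-mir-320b-2 had 128121, hsa-mir-320c-1 had 7105 and hsa-mir-320c-2 had 7075, and hsa-mir-320d-1 had 2399 and hsa-mir-320d-2 had 2326. How reads that fit several hairpins were counted is not given in the sources used here, so 2 copies of a name are not independent measurements and do not show which locus was the source.

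The hairpins lie on 6 chromosomes (RefSeq positions on GRCh38, overlaps from GENCODE release 29). hsa-mir-320a is on chromosome 8 from 22244966 to 22245037, in no annotated gene but its own, and 67 bases from the start of POLR3D, which is on the other strand and encodes an RNA polymerase III subunit. hsa-mir-320b-1 (chromosome 1, 116671746 to 116671817) and the hairpins hsa-mir-320d-1 and hsa-mir-320d-2 (chromosome 13, 40727816 to 40727887, and chromosome X, 140926160 to 140926231) overlap no other gene. hsa-mir-320b-2 (chromosome 1, 224257040 to 224257110) is in an intron of NVL and hsa-mir-320e (chromosome 19, 46709282 to 46709354) in an intron of PRKD2, both in the direction of the gene. hsa-mir-320c-1 (chromosome 18, 21683518 to 21683589) and hsa-mir-320c-2 (chromosome 18, 24321675 to 24321746) lie opposite introns of ABHD3 and OSBPL1A.

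Libraries held 2609929 to 3320017 hairpin counts, and the erythroid hairpins hsa-mir-144, hsa-mir-451a, hsa-mir-486-1 and hsa-mir-486-2 together took 7.08% and 6.51% of counts in K562 and 0.183% to 0.306% in HEK293E. Levels are given as CPM, counts per 1e+06 after TMM scaling over all 9 libraries. A read stands for a whole mature miRNA, so no length correction was made. How well each sequence is recovered was not corrected either, so an order of members by level is an order of counted reads.

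hsa-mir-320a was the most abundant member in every library and the hairpins of miR-320b, miR-320c, miR-320d and miR-320e followed in that order. In HEK293E replicate 1, hsa-mir-320a had 15376 CPM with siGFP, 15139 with siControl and 10948 with siERH-3. In replicate 2 it had 7492 CPM with siGFP, 8984 with siControl, 8920.4 with siERH-3 and 10625 with siERH-5. The 3 siERH libraries thus lay inside the range of the controls, and the highest and the lowest controls were of different replicates. In K562, hsa-mir-320a had 15923 CPM with siGFP and 13661 with siERH-5. By its count it ranked between 10 and 33 among the hairpins of a library.

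hsa-mir-320b-1 had 5342 and 5287 CPM in the controls of replicate 1 and 4667 with siERH-3. In replicate 2 it had 2819 and 3223 CPM in the controls, 3563 with siERH-3 and 4423 with siERH-5. In K562 it had 6166 CPM with siGFP and 5766 with siERH-5. Its order over the 9 libraries was close to that of hsa-mir-320a. Across the libraries the 2 hairpins had a Pearson's r of 0.957 on log2(CPM + 1), over points that share their library scaling and possibly reads.

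hsa-mir-320c-1 was at 292 CPM with siGFP and 239 with siControl in replicate 1, and at 402 with siERH-3. In replicate 2 it was at 95.5 and 121 CPM in the controls, 235 with siERH-3 and 215 with siERH-5. In K562 it was at 212 CPM with siGFP and 388 with siERH-5. Each siERH library was above the controls of its own replicate or line, although the siERH libraries of replicate 2 were below both controls of replicate 1.

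hsa-mir-320d-1 was less abundant. It had 81.8 and 57.8 CPM in the controls of replicate 1 and 151 with siERH-3. In replicate 2 it had 22.1 and 22.7 CPM in the controls, from 61 and 70 counts, and 83.6 with siERH-3 and 70.2 with siERH-5. In K562 it had 91.4 CPM with siGFP and 194 with siERH-5. Each siERH library was again above the controls of its own replicate or line. Unlike for hsa-mir-320c-1, the siERH-3 library of replicate 2 was also above both controls of replicate 1, and the siERH-5 library lay between them.

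hsa-mir-320e had 3 counts in all, 1 each in 3 HEK293E libraries, and 0 in the other 6 libraries. A count of 0 allows up to 3 counts, or 0.904 to 1.15 RPM (counts per 1e+06 of the library total) across the libraries. It did not reach a mean of 10 counts and was not tested, which leaves 7 of the 8 hairpins for the comparisons.

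Over all HEK293E libraries the siERH range overlapped the control range for all 7 hairpins, where 27.6% of 773 hairpins lay wholly above the controls and 17.2% wholly below. Within replicate 2 on the TMM scale, the 6 hairpins of miR-320b, miR-320c and miR-320d lay above both controls and hsa-mir-320a overlapped them. There 38.8% of hairpins lay above and 30.3% below. On library totals hsa-mir-320a also lay above both controls of replicate 2. It had 10685 RPM with siERH-3 and 12736 with siERH-5, against 7933 with siGFP and 9014 with siControl.

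**Figure D1:**
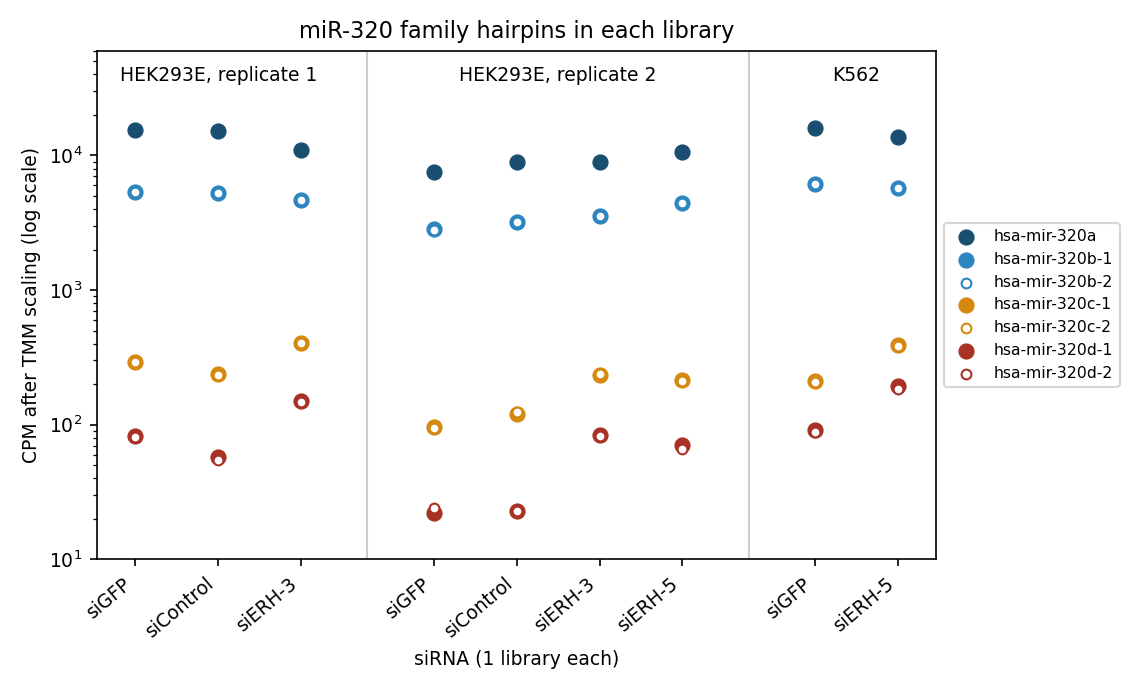
CPM after TMM scaling (log axis) of 7 miR-320 family hairpins in each of the 9 libraries, 1 point per library, with filled points for hsa-mir-320a and first copies and open points for second copies. hsa-mir-320c-1 and hsa-mir-320d-1 sit higher with siERH within each replicate and line, and all members of the HEK293E controls sit higher in replicate 1 than in replicate 2.

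The controls of the 2 HEK293E replicates differed for every member tested. hsa-mir-320a was 2.05 times higher in replicate 1 with siGFP and 1.68 times with siControl, and hsa-mir-320c-1 was 3.04 and 1.97 times higher. hsa-mir-320d-1 was 3.59 and 2.48 times higher. In siGFP, 5.17% of the 773 hairpins were at least 2-fold higher in replicate 1, and 3.88% were in siControl. With siERH-3 the same gap was 1.23-fold for hsa-mir-320a, 1.71-fold for hsa-mir-320c-1 and 1.80-fold for hsa-mir-320d-1, and 1.29% of hairpins were at least 2-fold higher. The labels tell the replicates apart by number. This gap is larger than the siERH change of several members, so values within a replicate are given beside the comparison of all libraries.

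The main comparison asked how the family differs in HEK293E when ERH is targeted, with 3 siERH against 4 control libraries. In the planned fit, which had no block, none of the 7 hairpins passed the test. In an alternative fit with the replicate number as a block, the 4 hairpins of miR-320c and miR-320d rose. There hsa-mir-320a and both hairpins of miR-320b did not pass. The background was high. Without the block, edgeR (quasi-likelihood, Benjamini-Hochberg) called 40% of 773 hairpins, 16.2% lower and 23.8% higher. With the block it called 48.6%, 20.6% lower and 28.1% higher. On library totals without the block the split was 67 lower and 212 higher, beside 125 and 184 on the TMM scale. Between the control siRNAs, edgeR called 18.2% of 730 hairpins with the block and 0% without it. The family's 4 higher of 7 with siERH and the block come from 2 distinct mature sequences.

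hsa-mir-320a had a log2 fold change of -0.27 ± 0.26 (SE, adjusted p = 0.432 in edgeR) without the block and of -0.08 ± 0.15 with the block (edgeR adjusted p = 0.669). Its mean was 11750.0 ± 4099 CPM in controls (SD, n = 4) and 10160.0 ± 1089 in siERH libraries (SD, n = 3). For hsa-mir-320b-1 the values were -0.04 ± 0.25 (SE, adjusted p = 0.901 in edgeR) and, with the block, 0.12 ± 0.15 (adjusted p = 0.512 in edgeR). Neither difference was larger than the spread between libraries, and the sign of neither was the same under all alternatives. hsa-mir-320b-1 turned positive with the block or on library totals. hsa-mir-320a stayed negative under each of those choices alone and turned positive with both together and with replicate 2 alone (0.23). On library totals with the block, the hairpins were at 0.13 for hsa-mir-320a and 0.34 for hsa-mir-320b-1, where the median of all hairpins was 0.22. In replicate 2 alone, 2 siERH against 2 control libraries, hsa-mir-320b-1 passed the threshold at 0.39 (edgeR adjusted p = 0.0467).

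hsa-mir-320c-1 stood at a log2 fold change of 0.55 ± 0.39 (SE, adjusted p = 0.286 in edgeR) without the block and rose by 0.82 ± 0.17 with it (adjusted p = 0.00209 in edgeR). hsa-mir-320d-1 stood at 1.08 ± 0.46 (SE, adjusted p = 0.085 in edgeR) and rose by 1.45 ± 0.21 with the block (adjusted p = 0.00014 in edgeR). It was above its own controls in 3 of 3 siERH libraries, as was hsa-mir-320c-1. Of all hairpins, 55.24%, 52.65% and 54.46% were above theirs in siERH-3 replicate 1, siERH-3 replicate 2 and siERH-5 replicate 2. The share above in all 3 was not computed. Without siGFP replicate 1, hsa-mir-320d-1 passed also with no block, at 1.49 (adjusted p = 0.0216 in edgeR). The second copies gave 0.82 and 1.38 with the block. Among the 773 hairpins, ranked by log2 fold change with its sign, 79.2% were lower with the block than hsa-mir-320c-1, and 92% lower than hsa-mir-320d-1. hsa-mir-320a was above 44% of hairpins. The median of all hairpins was 0.0071. On library totals with the block, hsa-mir-320c-1 was at 1.04 (edgeR adjusted p = 0.00146) and hsa-mir-320d-1 at 1.65 (edgeR adjusted p = 0.000269).

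**Figure D2:**
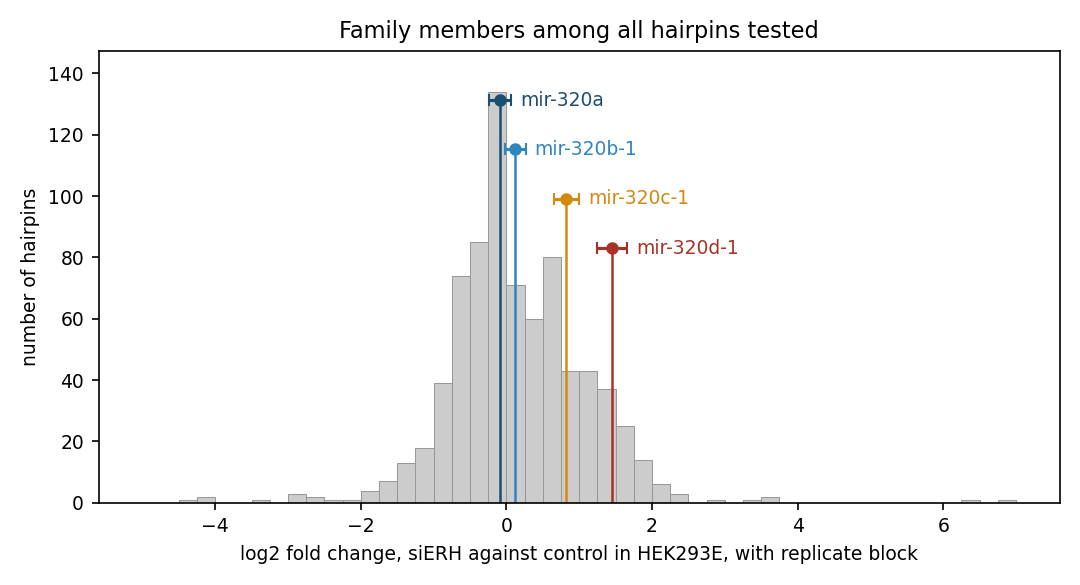
Log2 fold change of siERH against control in HEK293E with the replicate block, as the number of hairpins (bars, 773 in all) in steps of 0.25, with 4 family members marked by vertical lines, points and SE bars at arbitrary heights. hsa-mir-320a and hsa-mir-320b-1 lie near the middle of all hairpins, hsa-mir-320c-1 at 0.82 and hsa-mir-320d-1 at 1.45 lie toward the upper side.

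Compared with the controls of its own replicate, hsa-mir-320a was lower in siERH-3 replicate 1 by a log2 difference of -0.48, and differed by 0.12 in siERH-3 replicate 2 and 0.37 in siERH-5 replicate 2. hsa-mir-320b-1 differed by -0.19, 0.24 and 0.55 in the same libraries. hsa-mir-320c-1 differed by 0.60, 1.119 and 1.00. hsa-mir-320d-1 differed by 1.123, 1.85 and 1.60. In each of the 3 libraries the differences ran in the order miR-320a, miR-320b, miR-320c, miR-320d, from lowest to highest, and the replicate 1 library gave the lowest value for every member. The median difference of all hairpins was 0.13, 0.056 and 0.12. The siERH-5 library has no replicate, and it shares its controls with siERH-3 replicate 2. In these 3 libraries 15.1%, 16.6% and 17.9% of hairpins were at least 2-fold higher, a size that hsa-mir-320d-1 passed in all 3 and hsa-mir-320c-1 in siERH-3 replicate 2.

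**Figure D3:**
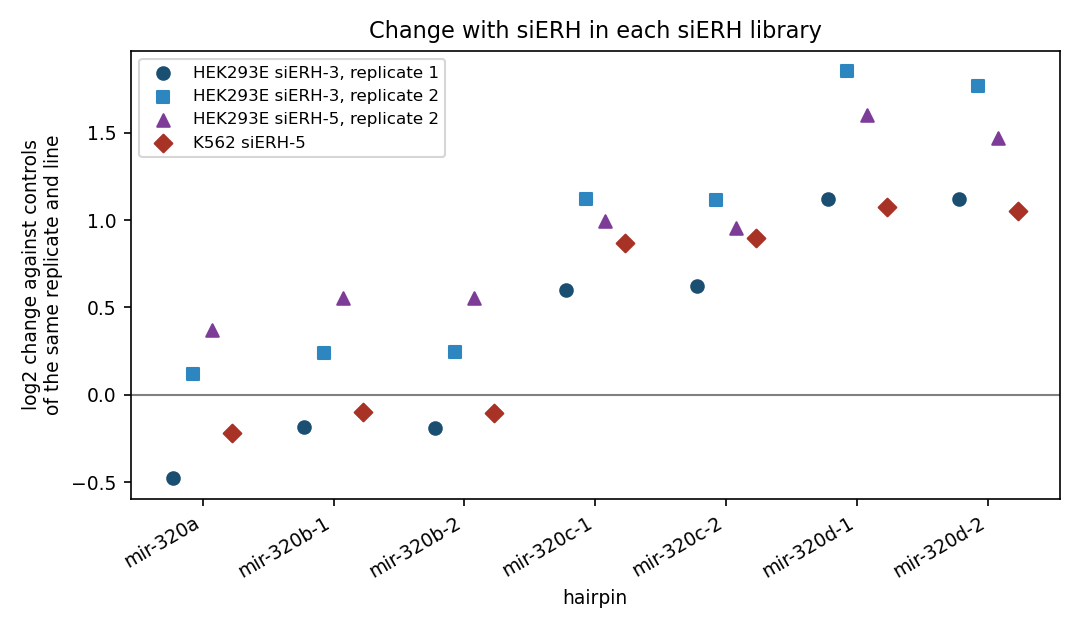
Log2 difference between each siERH library and the mean of the controls of its own replicate (HEK293E) or siGFP (K562) for 7 hairpins, 1 point per siERH library. The values of hsa-mir-320a and both copies of miR-320b lie on both sides of 0, and those of the miR-320c and miR-320d copies lie above 0 in all 4 libraries. In each of these libraries, 52.65% to 55.42% of all hairpins lay above 0.

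siERH-3 alone against the controls, 2 against 4 libraries, gave the same order. The log2 fold change of hsa-mir-320a was -0.27 ± 0.32 (adjusted p = 0.565 in edgeR) and that of hsa-mir-320d-1 was 1.32 ± 0.51 (adjusted p = 0.0826 in edgeR). With the block, hsa-mir-320a was at -0.20 (edgeR adjusted p = 0.337), hsa-mir-320c-1 at 0.83 (edgeR adjusted p = 0.0046) and hsa-mir-320d-1 at 1.47 (edgeR adjusted p = 0.000397). Without the block the test called 30.6% of 759 hairpins, 11.5% lower and 19.1% higher, and with it 45.1%, 18.7% lower and 26.4% higher. On library totals 48 were lower and 168 higher, beside 87 and 145. This comparison shares libraries with the main one and is no second measurement.

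Between the control siRNAs, siControl against siGFP with 2 libraries each, no member passed the threshold with or without the block. The changes with the block were 0.15 ± 0.11 for hsa-mir-320a, 0.02 ± 0.14 for hsa-mir-320c-1 and -0.29 ± 0.19 for hsa-mir-320d-1 (SE; edgeR adjusted p = 0.374, 0.931 and 0.317). edgeR's test called 0% of 730 hairpins without the block, where 24 had an unadjusted p under 0.05 and DESeq2 called 2 lower and 2 higher, and 18.2% with the block, 8.36% lower and 9.86% higher.

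Ratios of 2 members within a library do not depend on how libraries are scaled. Beside the planned ratio of hsa-mir-320a to hsa-mir-320b-1, 3 others were computed after the values were seen, and their p-values were adjusted over all 4. The adjustment does not cover the choice of those 3 ratios, so their p-values only describe the separation of these libraries. hsa-mir-320a had 2.88 and 2.86 times the counts of hsa-mir-320b-1 in the controls of replicate 1 and 2.35 times with siERH-3. In replicate 2 the ratio was 2.66 and 2.79 in the controls, 2.50 with siERH-3 and 2.40 with siERH-5. All 3 siERH libraries were below all 4 controls, by a small margin. The share of other hairpin pairs whose ratios separate like this was not computed. The log2 ratio went from 1.48 ± 0.05 (SD, n = 4) to 1.27 ± 0.05 (SD, n = 3), which is lower by a log2 difference of -0.21 (two-sided p = 0.0286 in an exact permutation test, the smallest that 35 splits allow, and 0.0381 after adjustment).

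The ratio of hsa-mir-320a to hsa-mir-320c-1 was 52.6 and 63.3 in the controls of replicate 1 and 27.3 with siERH-3. In replicate 2 it was 78.4 and 74.3 in the controls, 38.02 with siERH-3 and 49.4 with siERH-5. Its log2 difference was -0.84, a ratio 1.79 times lower (exact permutation two-sided p = 0.0286, adjusted p = 0.0381).

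The ratio of hsa-mir-320a to hsa-mir-320d-1 was 188 and 262 in the controls of replicate 1 and 72.5 with siERH-3. In replicate 2 it was 339 and 395 in the controls, 107 with siERH-3 and 151 with siERH-5. The siERH and control libraries did not overlap in either ratio. How often ratios of hsa-mir-320a to hairpins outside the family separate in this way was not computed. For levels of single hairpins, 27.6% of 773 lay wholly above the controls and 17.2% wholly below. The log2 difference was -1.44, a ratio 2.70 times lower (exact permutation two-sided p = 0.0286, adjusted p = 0.0381). The ratio of hsa-mir-320c-1 to hsa-mir-320d-1 differed by -0.60 (exact permutation two-sided p = 0.0571, adjusted p = 0.0571). With the replicate block the 4 differences were -0.21, -0.92, -1.56 and -0.64, each with an exact permutation p of 0.0556, the smallest that 18 splits allow.

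**Figure D4:**
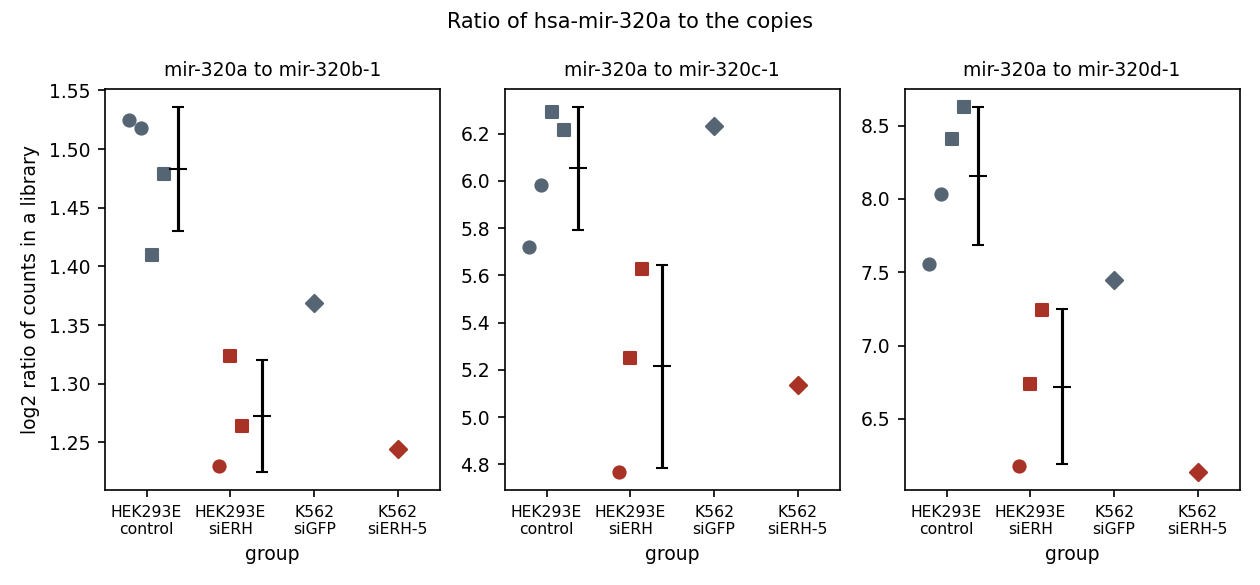
Log2 ratio of the counts of hsa-mir-320a to those of 3 copies within each library, with circles for HEK293E replicate 1, squares for replicate 2, diamonds for K562, red for siERH, and black bars for the mean and SD of the 4 control and 3 siERH libraries of HEK293E. The axes differ between panels and do not start at 0, and siERH points lie below the control points of the same line in all 3 panels. The share of other ratios that separate in this way was not computed.

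hsa-mir-320a thus made up a smaller part of the family's counts with siERH. With 1 copy kept per name, its share was 71.9% to 73.0% in the 4 HEK293E controls and 67.7% to 69.7% in the 3 siERH libraries. In siERH-3 replicate 1 it was 67.7% (95% Wilson interval 67.4% to 68.1%, counting error only). The share of miR-320b was 25.35% to 27.01% in the controls and 27.84% to 28.86% in the siERH libraries. The share of miR-320c was 0.916% to 1.39% in the controls and 1.40% to 2.49% in the siERH libraries, and that of miR-320d was 0.184% to 0.388% against 0.458% to 0.934%. If all copies are summed, hsa-mir-320a had 56.1% to 57.6% in the controls and 51.2% to 53.5% with siERH.

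In K562, 1 siERH-5 library was compared with 1 siGFP library, so there is no replicate check and no test. The siGFP library held 22119 counts of hsa-mir-320a and the siERH-5 library 29957, a log2 ratio of -0.22 on the TMM scale and 0.09 on library totals. hsa-mir-320b-1 was at -0.10 and 0.22. The direction of both therefore depended on the scaling. hsa-mir-320c-1 had 294 and 851 counts, a log2 ratio of 0.87 (95% counting interval 0.68 to 1.07). hsa-mir-320d-1 had 127 and 425 counts, a log2 ratio of 1.08 (95% counting interval 0.80 to 1.37). On library totals these were 1.18 and 1.38. The median of 646 hairpins was 0.088 on the TMM scale and 0.37 on library totals, and 10.7% were at least 2-fold higher on the TMM scale, which hsa-mir-320d-1 reached.

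Within the K562 libraries, the ratio of hsa-mir-320a to hsa-mir-320c-1 went from 75.2 to 35.2 and that to hsa-mir-320d-1 from 174 to 70.5. That to hsa-mir-320b-1 went from 2.58 to 2.37. The share of hsa-mir-320a, with 1 copy per name, was 71.0% (95% Wilson interval 70.5% to 71.5%) in the siGFP library. In the siERH-5 library it was 68.3%, between 67.8% and 68.7%. These values compare 2 libraries, not the conditions, and whether the lines differ in their response could not be tested.

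Levels of the 2 lines with siGFP could not be ordered. On the TMM scale hsa-mir-320a was lower in HEK293E, at 11430.0 ± 5574 (SD, n = 2) against 15923 CPM in K562, a log2 difference of -0.57. On library totals it was higher, at 13650.0 ± 8092 (SD, n = 2) against 8462 RPM, a log2 difference of 0.55. The same change of sign held for all 7 hairpins, and the choice of scaling moved the median of 741 hairpins from 0.19 to 1.21. On the TMM scale 31% of hairpins were at least 2-fold higher in HEK293E and 24.8% at least 2-fold lower. Of the family, only hsa-mir-320d-1 reached the latter size, at -1.08 (-2.38 to 0.22 at 1 SD of the 2 HEK293E libraries). Its second copy, hsa-mir-320d-2, stood at -0.97. The TMM factors were 0.531 for K562 siGFP and 1.26 and 1.06 for the HEK293E siGFP libraries. By rank, hsa-mir-320a stood at 24 in the K562 siGFP library and at 10 and 32 in the HEK293E siGFP libraries. The ratio of hsa-mir-320a to hsa-mir-320d-1 was 188 and 339 in HEK293E and 174 in K562.

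Other hairpins listed as made without DROSHA were set beside the family, and how each is made was not tested here. hsa-mir-484, also a capped precursor, stood at -0.22 ± 0.22 with siERH in HEK293E (SE, adjusted p = 0.457 in edgeR) and at -0.28 ± 0.13 when blocked (adjusted p = 0.091 in edgeR). Of 10 hairpins listed as mirtrons, a class that splicing releases from short introns, 7 were tested. In that comparison 1 of the 7 was lower, hsa-mir-1237 at -0.80 ± 0.27 (SE; edgeR adjusted p = 0.0366), and 0 were higher, beside 16.2% lower and 23.8% higher among all 773 hairpins. With the block the counts were the same, beside 20.6% and 28.1%. The median of the 7 was -0.14 without the block and -0.056 with it, and that of all hairpins was -0.01 and 0.0071. With siERH-3 alone 0 of the 7 passed without the block. With it hsa-mir-1237 was lower at -0.69 (adjusted p = 0.0317 in edgeR) and hsa-mir-1229 higher at 0.70 (adjusted p = 0.022 in edgeR), beside 18.7% lower and 26.4% higher. Between the control siRNAs, 0 passed without the block and 1 with it, hsa-mir-1228, higher with siControl at 1.1 (adjusted p = 0.00638 in edgeR), beside 9.86% higher.

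Over the 9 libraries the hairpins most like hsa-mir-320a were hsa-mir-320b-2 and hsa-mir-320b-1, with a Pearson's r of 0.958 and 0.957. Outside the family, 413 hairpins averaged 100 counts or more per library, and the most similar of them were hsa-mir-423 with a Pearson's r of 0.826, hsa-mir-941-1 with 0.783, hsa-mir-1908 with 0.778, hsa-mir-940 with 0.773 and hsa-mir-378d-2 with 0.769. These describe log2(CPM + 1) over 9 libraries that share their scaling and replicate structure. hsa-mir-320c-1 and hsa-mir-320d-1 had 0.614 and 0.573, lower than these 5 on the TMM scale. The order depended on the scaling. On library totals r was 0.92 for hsa-mir-423, 0.844 for hsa-mir-940, 0.80 for hsa-mir-941-1, 0.636 for hsa-mir-378d-2 and 0.351 for hsa-mir-1908, beside 0.767 for hsa-mir-320c-1 and 0.531 for hsa-mir-320d-1.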

How the data were processed

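Small RNA of 9 libraries was measured. The deposited counts are unnormalized whole numbers for each miRNA hairpin, in which 2336 blank cells were read as 0, and a second deposited table holds RPM values. Recomputation showed that the deposited RPM is the count plus 1 per 1e+06 of the library total plus 1485. Per the submitters' processing notes, cutadapt, Bowtie2 and bedtools were used with build hg38. Versions, the miRNA annotation and the treatment of reads with several matches are not given in the sources used here. Arms of a hairpin are not separated, and spike-in RNAs were not used here, so changes are relative to the other hairpins.

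Counts were tested with edgeR 4.0.16 in R 4.3.3 (TMM, quasi-likelihood test, Benjamini-Hochberg adjustment, threshold 0.05) over every hairpin whose mean was 10 counts or more, after the step had been tested on simulated data. SE is the log2 fold change over the square root of F. limma 3.58.1 on log2(RPM + 1) and DESeq2 1.42.0 were alternatives. Ratios without replicates used CPM plus 1. The labels number the replicates, and deviations of same-numbered libraries correlated with r of 0.498 to 0.698 across 790 hairpins. The block was therefore treated as a pairing, in an alternative to the planned fit without it. The text names all members present and the 5 hairpins outside the family most correlated with hsa-mir-320a. It also uses 2 lists taken as DROSHA-independent (hsa-mir-484, and mirtrons by name where called). Members and lists were chosen with earlier results of these data known. Intervals and floors cover counting error only, since collapsing of reads by molecule is not stated. Figures used Python 3.11.15 and matplotlib 3.10.9.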

Additional observations from a re-analysis of the deposited data

How the results depend on the processing

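With the replicate block, hsa-mir-320c-1, hsa-mir-320c-2, hsa-mir-320d-1 and hsa-mir-320d-2 passed the threshold in both siERH comparisons, and the block changed no other call of a member. Among the alternatives of the main comparison, miR-320d hairpins kept a positive change between 0.61 and 1.76, and miR-320c hairpins between 0.19 and 1.04. Both passed with replicate 2 alone, and the miR-320d hairpins also passed with no filter (1.01 and 0.97) and without siGFP replicate 1 (1.49 and 1.46; edgeR adjusted p = 0.0216 and 0.02, over a range of 0.00014 to 0.364 for all alternatives of these hairpins). For all changes given here, the cause was not tested.

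hsa-mir-320a changed sign with replicate 2 alone (0.23) and with the block on library totals (0.13), an alternative chosen after the data were seen. hsa-mir-320b-1 and hsa-mir-320b-2 changed sign with the block (0.12 both), library totals (0.12 both), limma (0.20 both), a mean of at least 100 counts (0.0040 and 0.0032), replicate 2 alone (0.39 both), and the block on library totals (0.34 both). Across the fits that each left out 1 library they ranged from -0.21 to 0.11. With siERH-3 alone they changed sign with the block (0.0040 and 0.0031), library totals (0.10 both), limma (0.18 and 0.17) and, for hsa-mir-320b-1, at least 100 counts (0.0013), and ranged from -0.27 to 0.17 with 1 library left out.

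Between siControl and siGFP, sign changes came with library totals (-0.040 for hsa-mir-320a, -0.054 for both copies of miR-320b), limma (-0.0099 and -0.0097 for miR-320b) and the block (0.021 and 0.034 for miR-320c). With 1 library left out, where the lone library of an arm is assumed to vary like the others, values ranged from -0.36 to 0.74 for hsa-mir-320a, -0.35 to 0.65 for miR-320b, -0.69 to 0.97 for hsa-mir-320c-1, -0.68 to 0.98 for hsa-mir-320c-2, -1.21 to 0.93 for hsa-mir-320d-1 and -1.23 to 0.76 for hsa-mir-320d-2, none past the threshold.

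Counts of hairpins moved too. siERH gave 125 lower and 184 higher hairpins, and library totals gave 67 lower, limma 66, and at least 100 counts, where fewer hairpins were tested, 63 lower and 82 higher. With 1 library left out, 76 to 130 were lower and 136 to 189 higher. The counts of 77 and 76 lower came without siERH-3 replicate 1 and without siERH-3 replicate 2. siERH-3 gave 87 and 145, with 142 lower under the block, 48 on library totals, 47 with limma and 46 with at least 100 counts, where 69 were higher. With 1 library left out, 19 to 102 were lower and 42 to 152 higher, with 19 and 49 without siERH-3 replicate 1, 24 and 42 without siERH-3 replicate 2, and 51 lower without siControl replicate 1. For siControl against siGFP (0 and 0), the block gave 61 and 72, DESeq2 and no filter 2 and 2 each, and 1 library left out 0 and 0 to 1.

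The ratios of hsa-mir-320a to hsa-mir-320b-1, hsa-mir-320c-1 and hsa-mir-320d-1 kept their direction. In replicate 2 alone they differed by -0.15, -0.82 and -1.53, where 6 splits allow no exact permutation p under 0.333, and with the block by -0.21, -0.92 and -1.56. With 1 library left out they ranged from -0.24 to -0.19, -1.04 to -0.62 and -1.70 to -1.17, in designs too small to pass 0.05.

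Values without a test depended on the scaling. siERH-5 in HEK293E gave 0.59 for hsa-mir-320a on library totals and 0.22 with DESeq2 size factors. In K562, hsa-mir-320a was 0.093 and -0.46, hsa-mir-320b-1 0.22 and hsa-mir-320b-2 0.21 on library totals. Between lines, library totals gave 0.55 for hsa-mir-320a, 0.45 for both copies of miR-320b, 0.78 and 0.79 for miR-320c, and 0.023 and 0.13 for miR-320d. With 1 copy per name the share of hsa-mir-320a was 72.9%, 73.0%, 67.7%, 71.9%, 72.7%, 69.7% and 69.3% in HEK293E and 71.0% and 68.3% in K562. Depth limits hsa-mir-320e, and the miR-320d hairpins in the replicate 2 controls, where counts were 61 to 70.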
